A study of Mus musculus with 7 samples.

Results

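The Mediator complex was described through the 33 genes that encode its subunits, in RNA-seq of pooled inner cell masses from mouse embryos in which ERK signalling was switched on for 4 h. The members were chosen by symbol, as the core subunits Med1 to Med31 and the kinase module with its paralogs, and all 33 were found among the 52636 genes of the count table. After the filter on low counts, 32 of the 33 were among the 16248 genes tested, and Med10 was not.

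All embryos had the genotype Sox2Cre;CRAFR26, in which Cre recombinase driven by the Sox2 promoter, active in the epiblast, acts on a CRAFR26 allele. They were flushed at E2.5 and all were kept for 24 h in KSOM with 250 nM PD17 (PD173074, an inhibitor of FGF receptors), so this inhibitor was present in controls as well. The tamoxifen group (4 libraries) received 250 nM 4OHT (4-hydroxytamoxifen) for 4 h to induce ERK. The vehicle group (3 libraries, time label 0 h) received ethanol for 4 h. Immunosurgery stripped the trophectoderm, which surrounds the ICM and contributes to the placenta, and 10 ICMs were pooled per library. The libraries came from clone 4 and clone 8 of the embryonic stem cells that carry the construct, with 2 vehicle and 2 tamoxifen libraries of clone 4, and 1 vehicle and 2 tamoxifen libraries of clone 8, after the submitters discarded 1 vehicle sample at quality control. Libraries are named by condition, clone and number, such as vehicle clone8_1.

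Mediator is a large assembly that sits between transcription factors bound at enhancers and RNA polymerase II at the promoter. Its head and middle modules contact the polymerase, Med14 forms the backbone that joins the modules, the tail is the main docking surface for activators, and a separable kinase module controls the contact with the polymerase. Some tail subunits are known partners of ETS factors, a family through which ERK signalling reaches genes: Med23 binds phosphorylated Elk1, and Med25 binds the PEA3 group (Etv1, Etv4 and Etv5). In pluripotent cells Mediator and cohesin together occupy active enhancers and promoters.

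Total counts ranged from 22981498 to 42294719 per library, and the tested members had between 276 (Cdk19) and 13498 (Med28) counts per library. The labels call the cell type E3.5 epiblast. The 9 naive epiblast markers, Nanog and Klf4 among them, summed to 1665 to 2044 CPM (library-size scaled counts, with TMM factors) in vehicle and 1708 to 2198 CPM in tamoxifen libraries. The 9 primitive endoderm markers summed to 844 to 1148 CPM and 884 to 1031 CPM. The 10 trophectoderm markers summed to 8530 to 11227 CPM and 6546 to 9534 CPM, above the naive sum in every library. With edgeR, fold change estimates were above 0 for 7 of 9 naive and 6 of 9 primitive endoderm markers. An unadjusted p under 0.05 was reached by 1 naive marker (Klf4) and 2 primitive endoderm markers (Sox17 and Lama1), all higher (background 2.69% of genes tested). All 10 trophectoderm markers had estimates below 0, 3 of them with an unadjusted p under 0.05 (background 3.28% lower). The part of these other cells in the Mediator values was not tested, and in bulk samples fewer cells of a type and less RNA per cell cannot be told apart. Nothing in the labels ties a library to particular parents or a particular day, so the p-values measure the spread between these libraries.

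All fold change estimates of the tested Mediator subunit RNAs lay within a 2-fold change either way, and no test of equality was made. With edgeR's quasi-likelihood test no member was called at an adjusted p under 0.05, where the background was 0% of the 16248 genes, and DESeq2 called 0 members as well (4 genes in all). Adjusted p-values of the members ranged from 0.794 to 0.999. By estimate, 18 members were above 0 and 14 below, from -0.45 (Med23) to 0.55 (Med30) in log2 fold change, tamoxifen against vehicle, with a median of 0.09 beside 0.02 over all genes tested. The members were measured more tightly than most genes, which was not particular to Mediator. The median standard error was 0.20 over the 59 genes that work with Mediator, described below, and 0.18 over the general initiation factors among them. For the members the median standard error was 0.21 on the log2 scale against 0.37 for all genes. The 95% interval lay within a 2-fold change either way for 28 of 32 members (87.5%) against 41.9% of all genes. The 4 members with wider intervals were Med21, Med28, Med30 and Med31.

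**Figure D1:**
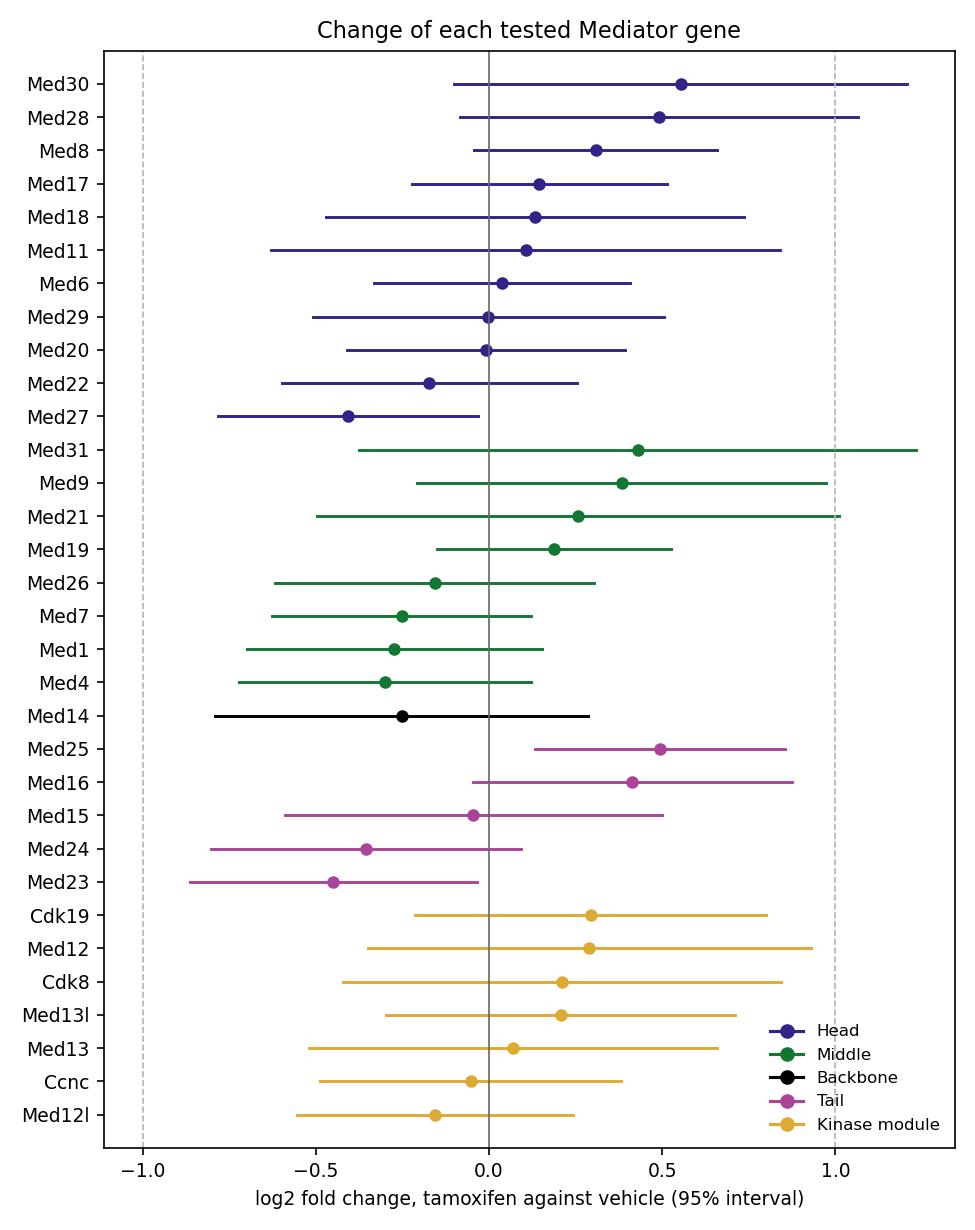
Log2 fold change of each tested Mediator gene, tamoxifen (n = 4) against vehicle (n = 3), with its 95% interval, grouped by module. The dashed lines mark a 2-fold change, and 28 of 32 intervals lie between them.

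The smallest p-values belonged to Med25 and to Med27 and Med23. With an unadjusted p under 0.05, 1 member was higher (background 2.69% of genes tested) and 2 were lower (background 3.28%), which is 3 of 32 members. The groups did not overlap for 4 members that were higher (Med25, Med8, Med16 and Cdk19; background 3.71%) and 2 that were lower (Med23 and Med27; background 4.74%). Together these 6 made up 18.8% of the members, beside 8.45% of all genes. Without vehicle clone8_1 the count was 9 members (28.1%) beside 16.7% of all genes, and without both libraries numbered clone8_1 it was 10 (31.3%) beside 23.7%. The count with an unadjusted p under 0.05 was 5 without vehicle clone4_1 (Med27, Med28, Med9, Med31 and Med24), where it was 8.97% of all genes. It was 1 without tamoxifen clone4_1 (Med25), where it was 3.91% of all genes, against 5.97% with all libraries.

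Med25 (ENSMUSG00000002968, GRCm38 chr7:44876765-44892712, minus strand) had 52.0, 62.0 and 62.5 CPM for vehicle clone4_1, clone4_2 and clone8_1. It had 74.0, 83.0, 79.9 and 94.3 CPM for tamoxifen clone4_1, clone4_2, clone8_1 and clone8_2. Every tamoxifen library was above every vehicle library, in either clone. The means were 58.8 ± 5.90 CPM (SD, n = 3) and 82.8 ± 8.53 CPM (SD, n = 4), and the log2 fold change was 0.49 with a standard error of 0.16 and a 95% interval of 0.13 to 0.85 (edgeR adjusted p = 0.794). The mean log2 change was 0.46 in clone 4 and 0.47 in clone 8.

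Med23 (chr10:24869986-24913681, plus strand), the tail subunit that contacts Elk1, lay on the other side. It had 26.4, 25.6 and 29.3 CPM in the vehicle libraries and 18.7, 21.4, 17.8 and 21.4 CPM in the tamoxifen libraries, in the same order of libraries. All tamoxifen values were below all vehicle values. The log2 fold change was -0.45 with a standard error of 0.19 (edgeR adjusted p = 0.794), and the change was -0.37 in clone 4 and -0.57 in clone 8. Its partner Elk1 had means of 8.96 ± 1.05 CPM in vehicle (SD, n = 3) and 12.2 ± 3.41 CPM in tamoxifen libraries (SD, n = 4), and its groups overlapped.

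The remaining tail subunits are Med16, Med24 and Med15, docking sites for nuclear receptors and other activators. Med16 (chr10:79894708-79908923) had 13.9, 14.9 and 16.3 CPM in vehicle and 17.1, 19.3, 23.1 and 20.6 CPM in tamoxifen libraries, a log2 fold change of 0.41 with a standard error of 0.21. Its groups lay next to each other without overlap. Med24 had 56.1, 71.0 and 90.8 CPM against 59.3, 59.8, 46.1 and 62.0 CPM (log2 fold change -0.35, standard error 0.20, and -0.17 without vehicle clone8_1), and Med15 had 50.6, 70.5 and 83.1 CPM against 69.3, 78.5, 42.8 and 73.5 CPM (-0.04, standard error 0.24, and 0.12 without vehicle clone8_1). For both, the vehicle library clone8_1 was the highest of the 7 and tamoxifen clone8_1 the lowest. Over the tail, 2 of 5 estimates were above 0 and 3 below, with a median of -0.04.

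**Figure D2:**
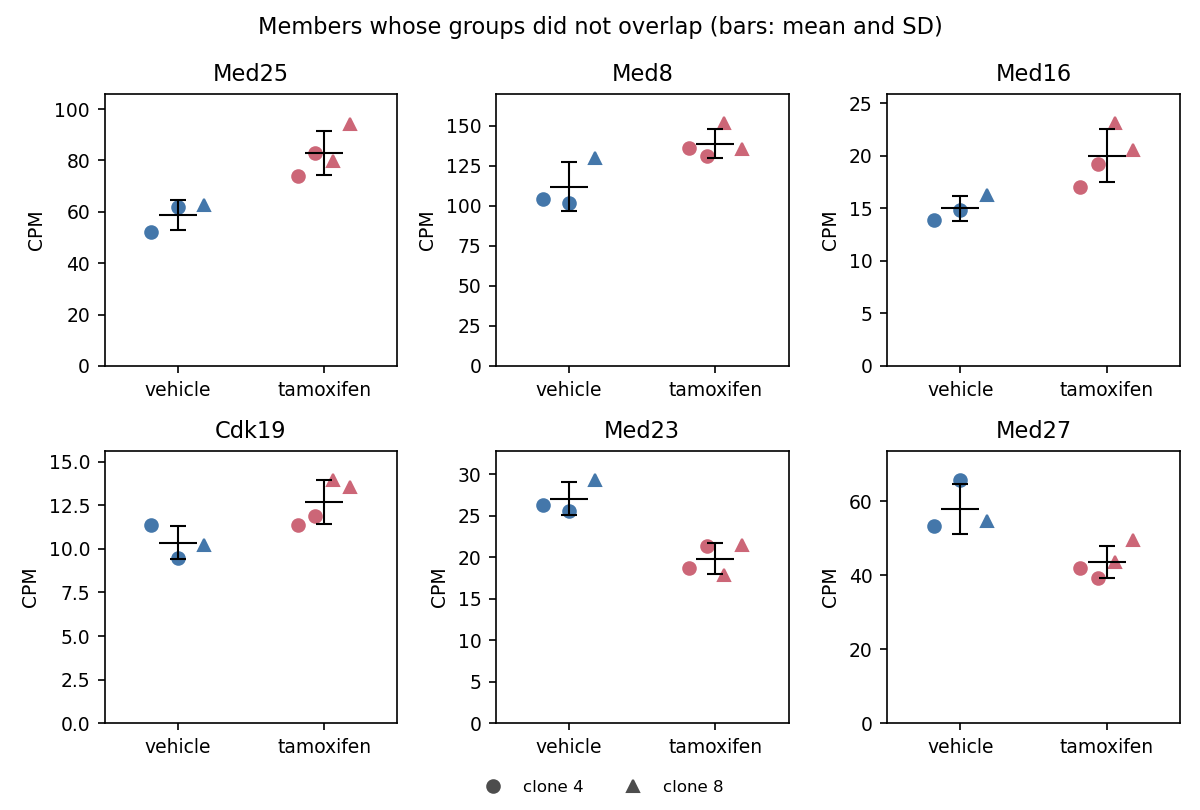
CPM of the 6 Mediator genes whose vehicle (n = 3) and tamoxifen (n = 4) libraries did not overlap, 1 point per library, circles for clone 4 and triangles for clone 8, with mean and SD. Med25, Med8, Med16 and Cdk19 were higher with tamoxifen and Med23 and Med27 lower, and no gene passed the adjusted test.

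In the head module, which holds on to the polymerase, 7 of 11 estimates were above 0 and the median was 0.11. Med27 (chr2:29346819-29524793, plus strand), at the joint of head and tail, had 53.2, 65.6 and 54.6 CPM in vehicle and 42.0, 39.2, 43.4 and 49.6 CPM in tamoxifen libraries. All tamoxifen values were lower, with a log2 fold change of -0.41 and a standard error of 0.17 (edgeR adjusted p = 0.794). Med8 (chr4:118409337-118415782, plus strand) had 104, 102 and 130 CPM in vehicle and 136, 131, 152 and 136 CPM in tamoxifen libraries, a log2 fold change of 0.31 with a standard error of 0.16. The gap between its groups was narrow, since vehicle clone8_1 lay just under tamoxifen clone4_2. Med17, a scaffold of the head, averaged 60.5 ± 6.07 CPM in vehicle (SD, n = 3) and 66.9 ± 7.50 CPM in tamoxifen libraries (SD, n = 4). Med6, Med18, Med20, Med22 and Med29 had log2 fold changes between -0.17 (Med22) and 0.13 (Med18).

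In the middle module, which includes Med1, the subunit known for binding nuclear receptors, 4 of 8 tested estimates were above 0 and the median was 0.01. Med1 (chr11:98152154-98193293, minus strand) had 96.1, 92.0 and 134 CPM in vehicle and 91.5, 99.9, 71.6 and 92.4 CPM in tamoxifen libraries. Its groups overlapped, with vehicle clone8_1 above the others and tamoxifen clone8_1 below them. Med26, which recruits elongation factors, averaged 39.0 ± 7.90 CPM in vehicle (SD, n = 3) and 34.96 ± 5.18 CPM in tamoxifen libraries (SD, n = 4), and Med19 and Med7 had log2 fold changes of 0.19 and -0.25. Med4 had 85.2, 73.8 and 120 CPM against 77.0, 68.5, 78.5 and 77.9 CPM. The backbone subunit Med14 (chrX:12675369-12762073, minus strand) had 17.7, 22.0 and 18.4 CPM against 13.0, 12.9, 20.0 and 19.2 CPM. The clone 4 libraries of the tamoxifen group were the lowest of the 7 for Med14, and its clone 8 libraries lay among the vehicle values.

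The kinase module pairs a cyclin, Ccnc, with Cdk8 or its paralog Cdk19, and Med12 or Med12l and Med13 or Med13l link the kinase to the core. In it, 5 of 7 estimates were above 0, with a median of 0.21. Cdk19 (chr10:40339564-40483818, plus strand) had 11.36, 9.50 and 10.23 CPM in vehicle and 11.39, 11.90, 13.98 and 13.57 CPM in tamoxifen libraries. Its groups were separated only by the last decimal between the clone4_1 libraries. Cdk8 had 10.6, 14.8 and 20.1 CPM against 15.8, 15.04, 24.1 and 15.5 CPM, and Ccnc 67.5, 60.9 and 72.7 CPM against 68.4, 79.9, 47.7 and 62.3 CPM. Med12, an X-linked gene, had 15.1, 19.9 and 19.2 CPM against 25.0, 28.3, 12.4 and 22.7 CPM. For Med12 and Ccnc, tamoxifen clone8_1 was the lowest of all libraries, and the groups overlapped.

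Each paralog pair can be read as a ratio of counts within a library, which needs no scaling between libraries. The ratio of Cdk19 to Cdk8 was 1.07, 0.642 and 0.509 in the vehicle libraries and 0.720, 0.791, 0.581 and 0.878 in the tamoxifen libraries. The ratio of Med12l to Med12 was 2.86, 2.40 and 2.12, and 1.83, 1.23, 2.78 and 1.86. The ratio of Med13l to Med13 was 2.42, 2.21 and 1.58, and 2.67, 2.39, 2.16 and 1.85. The groups overlapped for all 3 pairs. On the log2 scale the difference, tamoxifen minus vehicle, was 0.06 for Cdk19/Cdk8, -0.40 for Med12l/Med12 and 0.14 for Med13l/Med13. Two-sided exact permutation tests over the 35 assignments of the libraries gave p = 0.857, 0.286 and 0.543, or 0.857, 0.814 and 0.814 adjusted over the 3 pairs. The smallest p these tests can give is 0.0286. The sign for Cdk19/Cdk8 turned without vehicle clone8_1 (-0.17), vehicle clone4_2 (-0.01) or tamoxifen clone8_2 (-0.02), and that for Med13l/Med13 without vehicle clone8_1 (-0.04). The difference for Med12l/Med12 kept its sign, at -0.20 without tamoxifen clone4_2, -0.60 without tamoxifen clone8_1 and -0.80 in clone 4 alone. Per kilobase of a typical transcript, the mean ratio was 0.401 for Cdk19 to Cdk8, 1.397 for Med12l to Med12 and 2.66 for Med13l to Med13. Med12l and Med13l were thus the more abundant paralogs in the mean over libraries. For Med12l this order did not hold in tamoxifen clone4_2. There the log2 ratio of counts, 0.304, was below the log2 ratio of lengths, 0.577.

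**Figure D3:**
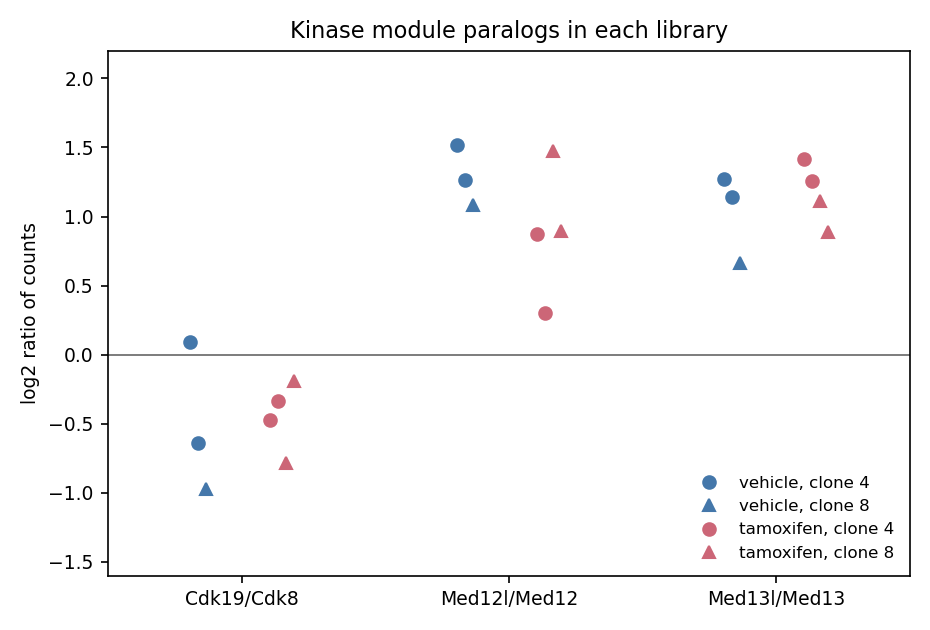
Log2 ratio of counts of the kinase module paralogs in each library, vehicle in blue and tamoxifen in red, circles for clone 4 and triangles for clone 8. Med12l and Med13l had more counts than Med12 and Med13 in all 7 libraries, and the conditions overlapped for each pair.

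Subunits that meet in an assembled complex did not have equal RNA levels. Levels between genes are given as CPM per kilobase of a typical transcript, the median length over a gene's protein-coding transcripts. Med28 was the highest at 386 ± 103 (SD, n = 7), followed by Med8 (112 ± 15.8), Med6 (84.8 ± 8.93), Med4 (62.5 ± 12.9) and Med21 (58.0 ± 16.7). The lowest tested members were Med13 (1.91 ± 0.456), Cdk19 (2.39 ± 0.333), Med12 (2.99 ± 0.810), Med12l (4.07 ± 0.499), Med23 (4.64 ± 0.856) and Med14 (4.72 ± 0.929). Neighbours in these orders, such as Med4 and Med21 or Med23 and Med14, did not differ beyond their SD. The median was 39.6 in the head, 32.6 in the middle, 19.4 in the tail and 4.07 in the kinase module. The kinase module also has the longest transcripts (median 6813 nt against 1254 nt in the head), and how far length itself moves with these levels was not tested. With the longest transcript in place of the typical one, 4560 nt in place of 734 nt, Med28 moved from rank 1 to rank 4. Med28, a head subunit, accounted on average for 15.2% of the summed CPM of all members.

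**Figure D4:**
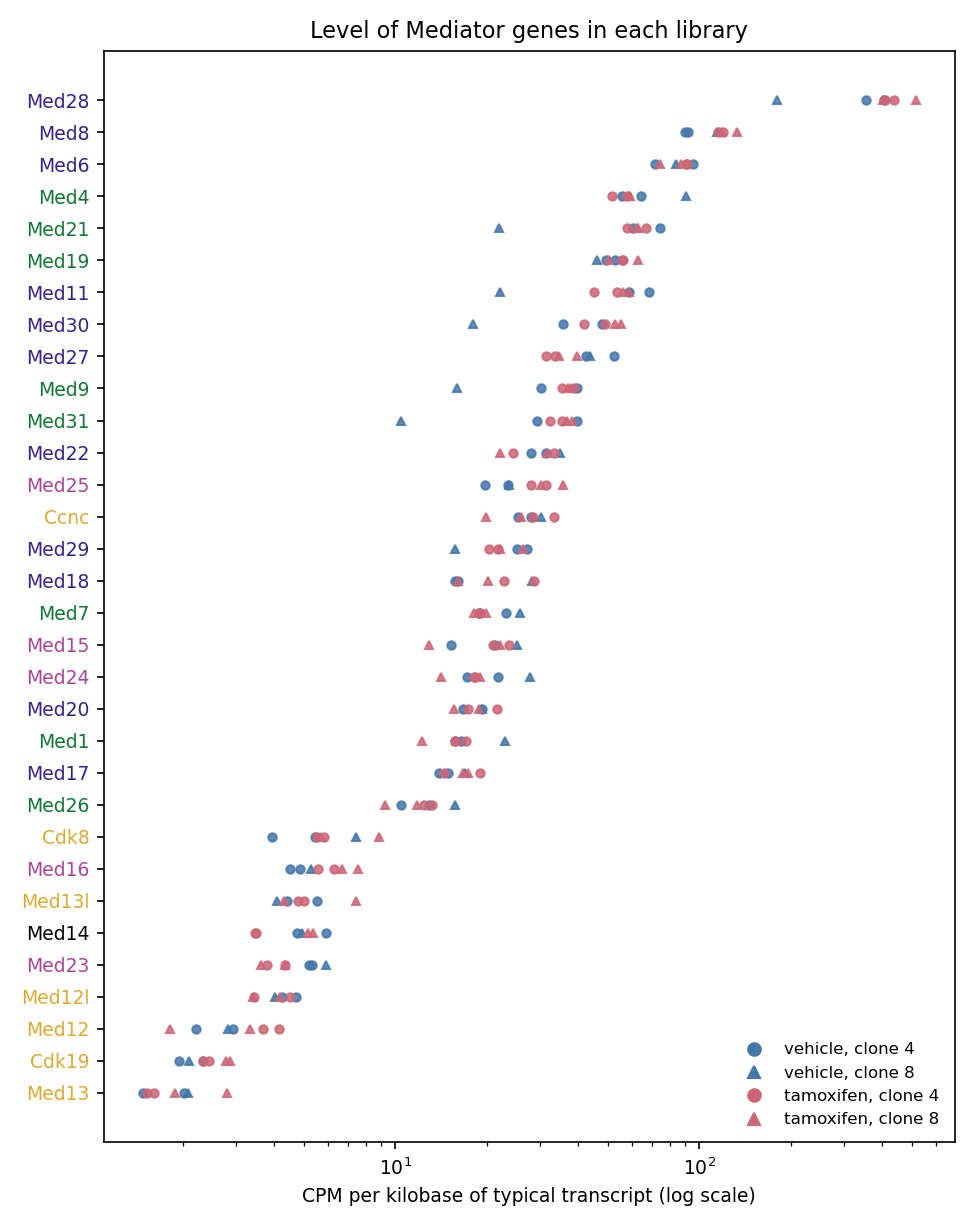
CPM per kilobase of typical transcript (log axis) for the 32 tested Mediator genes in each library, ordered by mean, with gene names coloured by module as in the plot of fold changes. The kinase module genes other than Ccnc are all in the lower part of the plot, and the vehicle clone8_1 triangle stands apart to the left for Med28, Med21, Med11, Med30, Med9 and Med31.

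Summed over all 33 members, the level was 1827, 1774 and 1722 CPM in vehicle and 1906, 1904, 1926 and 1910 CPM in tamoxifen libraries. The groups did not overlap in this sum. Without Med28 the sums were 1529, 1514 and 1590 CPM and 1586, 1604, 1547 and 1615 CPM, and they overlapped. No test was made of a sum over members.

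The vehicle library clone8_1 stood apart for a subset of members. Relative to each gene's median over the 7 libraries, 6 of 32 members were more than 1 log2 unit lower in it, and no member was in any other library. These were Med31 (-1.71), Med21 (-1.48), Med30 (-1.38), Med11 (-1.32), Med9 (-1.19) and Med28 (-1.17). The share of all tested genes this low in vehicle clone8_1 was not counted, so these 6 stand without a background. Med31 had 12.1 CPM there, against 34.0 to 46.0 CPM in the other libraries, and Med11 had 14.8 CPM against 30.3 to 45.9 CPM. Med21 had 15.2 CPM against 40.1 to 51.3 CPM, Med30 had 18.2 CPM against 36.0 to 55.6 CPM, Med9 had 30.7 CPM against 57.6 to 76.1 CPM, and Med28 had 132 CPM against 259 to 379 CPM. The low library did not overlap the other 6 for any of them, which follows from the cut, since no other library passed it.

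Transcripts under 1000 nt were low in that library across the genome. Among protein-coding genes of this length, the median deviation in vehicle clone8_1 was -1.02 over 1164 genes and -1.32 over 3 members. From 1000 to 2000 nt it was 0 over 3367 genes and -0.05 over 9 members. At 2000 nt and above it was 0.01 over 8548 genes and 0.07 over 20 members. Of the 6 low members, Med30 (1007 nt), Med31 (1161 nt) and Med9 are in the class from 1000 to 2000 nt, which was not low as a whole. Of the 9 tested members under 1300 nt, 5 were among the 6 low ones, whereas Med6, Med8, Med27 and Med29, also under 1300 nt, deviated by -0.05, -0.01, 0.14 and -0.48 there. Med9, the sixth, has a typical length of 1920 nt. Across the 32 members Spearman's rho of deviation with length was 0.40 in vehicle clone8_1 and between -0.35 and 0.35 in the other libraries, as a description of genes that share a library. The part of transcript length in the results was not tested beyond a fit with a length correction.

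**Figure D5:**
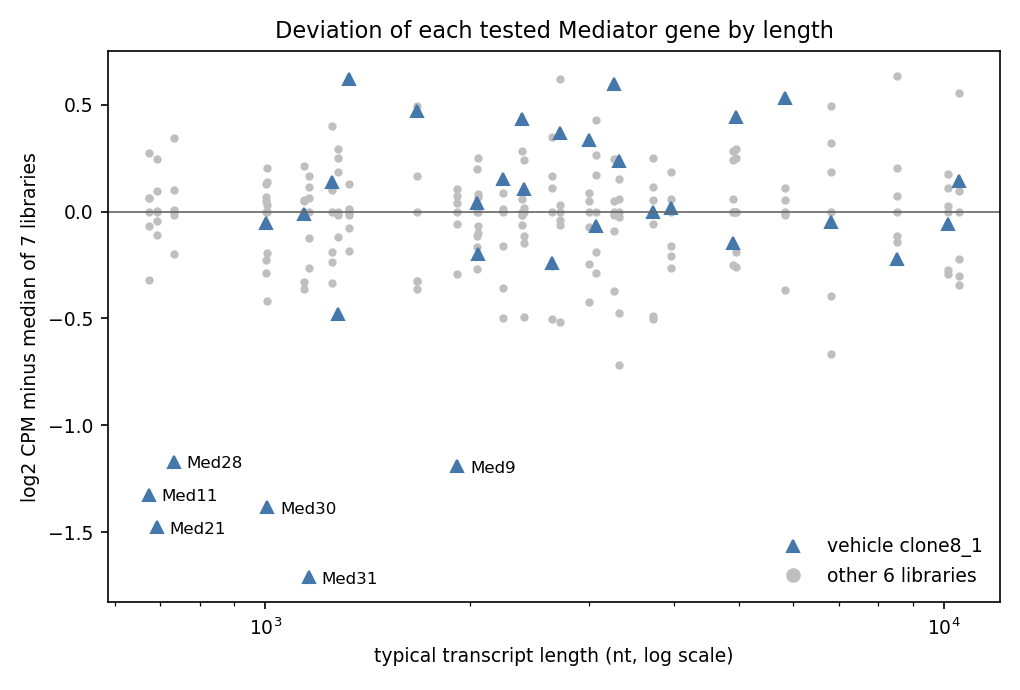
Deviation of each tested Mediator gene from its median over the 7 libraries (log2 CPM) against typical transcript length (log axis), with vehicle clone8_1 as triangles and the other 6 libraries as grey points. The 6 named genes lie between -1.17 and -1.71 in vehicle clone8_1, and no other point lies below -1.

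The fold changes of these 6 members depend on that library, in which they were picked for being low. Lower estimates without it, and a lower median over the rest of the members, follow from that choice. Med30, Med28, Med31, Med9, Med21 and Med11 had log2 fold changes of 0.55, 0.49, 0.43, 0.38, 0.26 and 0.11. Without vehicle clone8_1 they were 0.24, 0.20, 0.04, 0.09, -0.12 and -0.26. The median over the members was 0.03 without that library, and over the other 26 members with all libraries it was -0.0056.

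The change differed between clones for Med11 and Med31. In edgeR's interaction test (clone by condition), Med11, a head subunit, had a change that was 1.75 log2 units higher in clone 8 (adjusted p = 0.0450), and Med31, a middle subunit, 1.87 higher (adjusted p = 0.0404). The Med11 change was -0.36 in clone 4 and 1.35 in clone 8, and that of Med31 was -0.01 and 1.80. The background was 3.14% of genes higher and 0.0246% lower in clone 8, beside 2 of 32 members (6.25%). Clone 8 had 1 vehicle library, vehicle clone8_1, so clone and library cannot be told apart here. With the length correction 0 members were called (0.788% of genes), and leaving out 1 library at a time gave between 0 and 3 members (0.329% to 4.46% of genes). It was 0 without vehicle clone4_1 or any of tamoxifen clone4_1, clone4_2 and clone8_1. DESeq2 called 6 members (Med11, Med18, Med21, Med28, Med30 and Med31), where it called 6.09% of genes. Across the 32 members the sign of the change was the same in both clones for 16.

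Med10 (chr13:69802395-69816104, plus strand), a middle subunit, had almost no counts. It had 1, 1 and 2 counts in the vehicle libraries and 3, 0, 1 and 2 in the tamoxifen libraries, where 3 counts correspond to 0.0710 to 0.129 CPM. No fold is given, since both groups are at this floor. In GENCODE M21, 4168 of its 4491 exon bases (92.8%) overlap exons of Gm26819 on the opposite strand. Among protein-coding genes with at least 90% of their exon bases shared with an opposite strand gene, 56 of 59 (94.9%) had at most 3 counts in every library, against 29.2% of 19911 genes with under 10% shared. Gm26819 also had few counts, 17, 2 and 13 in the vehicle and 8, 19, 3 and 6 in the tamoxifen libraries. Whether the counting used strand is not given in the sources used here, so the few reads of Med10 and Gm26819 cannot be told apart. Why both genes had so few counts was not tested. Smaller overlaps make other counts less certain. The share of exon bases on an opposite strand gene is 26.3% in Med31, 21.4% in Med20, 21.2% in Med7 and 17.3% in Med12l. On the same strand, Med12 shares 749 exon bases (9.72%) with Gm21986 and Med20 shares 513 (7.004%) with the read-through gene Gm20517. The part of shared exon bases in the ratio of Med12l to Med12 was not tested either.

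Promoter sequences were searched for CCGGAA, a form of the ETS site, on either strand (reverse TTCCGG), because ERK acts through ETS factors. Apart from a longer form given below, other forms of the site were not searched for. A promoter with no match may therefore hold another form. A promoter here is the stretch from 250 bases before to 50 after a RefSeq start in GRCm38.p6. It was found for 28 of the 33 members, and 14 of the 28 (50%) held a match, against 16.7% of 27025 genes and 30.4% of the 11005 tested genes with a promoter. The longer CCGGAAGT, whose matches are among those of CCGGAA, stood in Med15, Med17 and Med18 (10.7%, against 4.31% of genes and 8.996% of tested genes). The members with CCGGAA were Ccnc, Med4, Med6, Med7, Med10, Med11, Med12, Med14, Med15, Med17, Med18, Med19, Med20 and Med29. Their median log2 fold change was -0.001 over 13 tested members, and it was 0.21 over the 14 tested members with no match. Of the members that were low in vehicle clone8_1, Med9, Med21, Med28 and Med31 had no match. Med11 had a match, and Med30 had no promoter sequence. The difference between the medians was not tested, nor was its dependence on that library. A match to CCGGAA describes letters and not a bound site. The promoters of Med25 and Med27 are shown as those of the members with the 2 smallest p-values, neither of which holds CCGGAA, and that of Med17 as an example with the longer match. They are given 5′ to 3′ on the gene's strand, with CCGGAA in capitals, at chr7:44892375-44892674 (minus strand) for Med25, chr2:29346560-29346859 (plus strand) for Med27 and chr9:15279857-15280156 (minus strand) for Med17.
Med25: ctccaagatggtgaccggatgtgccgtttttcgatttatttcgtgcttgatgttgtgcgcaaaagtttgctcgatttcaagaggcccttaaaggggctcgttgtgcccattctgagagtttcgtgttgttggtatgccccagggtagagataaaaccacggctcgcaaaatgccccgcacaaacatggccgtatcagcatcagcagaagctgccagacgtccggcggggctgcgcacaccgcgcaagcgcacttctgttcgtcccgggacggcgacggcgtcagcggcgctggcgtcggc
Med27: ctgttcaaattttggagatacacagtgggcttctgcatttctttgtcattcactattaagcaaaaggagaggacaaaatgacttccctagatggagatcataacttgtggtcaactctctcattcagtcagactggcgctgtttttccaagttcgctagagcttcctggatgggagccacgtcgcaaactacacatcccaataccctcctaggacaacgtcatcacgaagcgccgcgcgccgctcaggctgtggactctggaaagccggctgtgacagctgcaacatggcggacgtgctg
Med17: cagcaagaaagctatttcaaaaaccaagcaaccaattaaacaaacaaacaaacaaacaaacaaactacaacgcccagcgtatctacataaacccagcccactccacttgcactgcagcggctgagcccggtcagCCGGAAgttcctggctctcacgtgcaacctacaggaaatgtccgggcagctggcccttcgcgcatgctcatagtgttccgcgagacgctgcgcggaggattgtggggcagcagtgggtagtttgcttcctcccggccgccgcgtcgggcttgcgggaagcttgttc

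Genes that work with Mediator were compared through fixed lists of 59 genes, all tested. With edgeR, 0 of them passed the adjusted test. With an unadjusted p under 0.05, 1 was higher (background 2.69% of all genes) and 2 were lower (background 3.28%). The median log2 fold change was -0.03. Polr2g, a subunit of the polymerase stalk, had 123, 135 and 66.9 CPM in vehicle and 164, 161, 182 and 151 CPM in tamoxifen libraries (log2 fold change 0.61, standard error 0.23). Its typical length is 861.5 nt, and its lowest value was in vehicle clone8_1, where transcripts under 1000 nt were low. Gtf2b, the initiation factor that bridges promoter and polymerase, had 76.4, 76.3 and 81.7 CPM against 57.8, 55.3, 52.7 and 71.9 CPM (-0.39, standard error 0.16). Stag2, a subunit of cohesin, had 114, 85.4 and 90.5 CPM against 61.5, 64.1, 54.7 and 75.4 CPM (-0.60, standard error 0.18). The groups of these 3 genes did not overlap. Over the 59 genes, this held for 2 that were higher (background 3.71% of all genes) and 3 that were lower (background 4.74%).

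By list, 8 of 12 polymerase subunits had estimates above 0 (median 0.32), 4 of 18 general initiation factors (median -0.10), 6 of 18 pause release and elongation genes (median -0.02), 1 of 7 cohesin and loader genes (median -0.14) and 3 of 4 ternary complex factor genes (median 0.44). Over all genes tested, 8408 of 16248 estimates were above 0. An interaction with clone was called in 7 of the 59 genes (11.9%, against 3.16% of all genes), all higher in clone 8. Of the 7, 5 are polymerase subunit genes, Polr2k and Polr2l among them, a list with a median typical length of 861 nt. Polr2l, longer than that median at 1650 nt, had 13.8 CPM in vehicle clone8_1 and 57.1 to 113 CPM in the other libraries. All polymerase subunits except Polr2a, Polr2b and Polr2c had their lowest value in vehicle clone8_1. No median of the polymerase list is given without that library. Vehicle clone8_1 was also the library that was low for Med11 and Med31.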

How the data were processed

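RNA-seq of 7 libraries was read from 1 deposited table of raw counts per Ensembl gene, which the authors did not normalise. Per the submitters' processing notes, bcl2fastq 2.19.1, STAR 2.5.3a and the mm10 build were used. The counting program, annotation, strand setting and treatment of duplicates are not given in the sources used here. Groups come from the treatment labels, and the rule names all 33 members. The members, gene lists and tests were chosen with earlier results of these data known.

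Symbols, coordinates and lengths are from GENCODE M21 (GRCm38), which matched 52489 gene IDs (147 did not), and promoters are from RefSeq. Counts were fitted over the whole table with edgeR 4.0.16 in R 4.3.3 (TMM factors, expression filter by group, quasi-likelihood test, condition as the only term, Benjamini-Hochberg adjustment over 16248 genes). Log2 CPM used a prior count of 2, and paralog ratios had 0.5 added to each count. The scripts were tested on simulated data. Alternatives were DESeq2 1.42.0, its size factors (RLE), no filter, clone as a term, a replicate block, a length correction, clone 4 alone and libraries left out. Leaving out vehicle clone8_1, alone or with its namesake, for the count of groups that do not overlap was chosen after seeing the data. Amplified reads without molecular identifiers are not independent molecules, so floors cover counting error only.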

Additional observations from a re-analysis of the deposited data

Results flagged for a closer look

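Within groups of 4, a library lay far from the others for 2 of 35 values looked at (5.71%, where chance gives about 5%). Med4 had 68.5 CPM in tamoxifen clone4_2, below 77.0 CPM in the next library. Cdk8 had 24.1 CPM in tamoxifen clone8_1, above 15.8 CPM in the next library.

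The change with tamoxifen differed between clones for Med11, by 1.75 log2 units (clone 8 minus clone 4), and for Med31, by 1.87 log2 units, in the edgeR interaction test. Both values rest on vehicle clone8_1, the only vehicle library of clone 8.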

How the results depend on the processing

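No member passed the adjusted test under any alternative run, and the smallest adjusted p was 0.439 (Med25, DESeq2). The count of members with an unadjusted p under 0.05 (3, beside 5.97% of all genes) was 5 in clone 4 alone (7.87%), 1 to 5 with 1 library left out (3.91% to 8.97%) and 0 with the replicate block (4.44%). Same-numbered libraries did not deviate together (correlations 0.0078, 0.021 and -0.068), nor did each correlate best with its namesake, so they are not treated as pairs. The member median (0.088) was 0.028 with the length correction. Members with an interaction (2, beside 3.16%) numbered 6 in DESeq2 (6.09%), 5 without the filter (3.49%), 0 with the length correction (0.788%) and 0 to 3 with 1 library left out (0.329% to 4.46%), and the interaction could not be fitted without vehicle clone8_1. Members whose groups did not overlap (6) numbered 10 without both clone8_1 libraries. Estimates that changed sign, on the log2 scale, were as follows, and the cause was not tested. With clone as a term they were Med29 0.046 and Med13 -0.030, with the replicate block Med20 0.059 and Cdk19/Cdk8 -0.025, and with the length correction Med6 -0.16, Med11 -0.16 and Med20 0.031. Without both clone8_1 libraries they were Med11 -0.30, Med20 0.0081, Med22 0.00093, Med1 0.0036, Med21 -0.12, Med26 0.093, Med15 0.28, Ccnc 0.12, Med13 -0.066, Med13l -0.081, Cdk19/Cdk8 -0.061 and Med13l/Med13 -0.020. In clone 4 alone they were Med11 -0.37, Med20 0.11, Med1 0.016, Med21 -0.12, Med26 0.13, Med31 -0.039, Med15 0.28, Ccnc 0.20, Med13 -0.16, Med13l -0.027 and Cdk19/Cdk8 -0.13. With 1 library left out the ranges were Med18 -0.037 to 0.45, Med20 -0.12 to 0.064, Med29 -0.22 to 0.14, Cdk8 -0.0089 to 0.46, Med13 -0.15 to 0.15, Med6 -0.066 to 0.13, Med11 -0.26 to 0.40, Med21 -0.12 to 0.59, Med15 -0.24 to 0.12, Ccnc -0.18 to 0.069, Cdk19/Cdk8 -0.17 to 0.36 and Med13l/Med13 -0.040 to 0.27. Of 32 members, 17 kept their sign throughout. An arm left with 1 library was assumed to vary like the other.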
